A study of Arabidopsis thaliana with 12 samples.

Results

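The cytosolic ribosomal protein genes described here are 45 Arabidopsis thaliana genes, 21 for the small (40S) and 24 for the large (60S) subunit, out of 22028 genes listed in the RNA tables. They were taken by locus identifier from a fixed list, and the assembled pieces on each identifier were summed. Every gene of the list came in 1 piece in every library, and all 45 passed the filter on low values, among 21038 genes tested. The genes encode 27 different proteins, and 14 of these proteins were represented by more than 1 gene copy (32 genes). The names are those of a RefSeq gene table or, where it gives no ribosomal protein name, those of the deposited tables.

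RNA was sequenced from whole seedlings, not from isolated buds, in 2 groups of 3 libraries. The induced line, GFP:BRC1ind, carries a fusion of GFP to BRC1 (BRANCHED1, a transcription factor of the TCP family with a role in axillary buds) that estradiol switches on, and the control is the brc1-2 knock-out. Seedlings of both groups were 10 days old, received 10 uM estradiol and were collected 5 hours later. Anti-GFP chromatin immunoprecipitation followed by sequencing (ChIP-seq) in the induced line gave a list of binding peaks. The genotypes of the groups differ beyond the transgene, and the samples do not include the induced line without estradiol. Nothing in the labels says that the libraries came from separate cultures, so p-values measure only the spread between these libraries.

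The cytosolic ribosome translates nuclear messages. Its small subunit reads the mRNA and its large subunit joins amino acids, and in Arabidopsis each ribosomal protein is encoded by a family of near-identical genes. These genes are strongly expressed in growing tissue, and their transcripts are known to accumulate in axillary buds that start to grow out. BRC1 acts in the opposite sense, holding buds dormant, which makes the ribosomal protein genes a natural group to follow after its induction.

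The label check on BRC1 (AT3G18550) gave an FPKM (fragment count scaled to transcript length and library size) of 3370, 3421 and 3625 in induced libraries 1 to 3, against 1.34, 1.66 and 2.2 in brc1-2 libraries 1 to 3. Derived fragments per library ran from 33175413 to 53385442. Each of the 45 genes rested on at least 1191 of them, which puts the counting error of a single value between 0.381% and 2.9%. Reads from near-identical copies can be assigned to either copy, so the split within a family is less certain than its sum. Leaf and root markers were both present in all libraries, and none of the 5 leaf or 7 root markers was listed at 0.

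None of the 45 genes passed an adjusted p of 0.05 between the induced line and brc1-2 in limma, in a comparison that called 16.2% of all tested genes (7.37% higher and 8.86% lower). Their adjusted p-values in limma ran from 0.148 to 0.886. All 45 log2 fold changes were above 0, where 55.6% of all tested genes were, but they were small. The median was 0.26 (1.19-fold) with a range of 0.03 to 0.35 and an SD over genes of 0.05, against a median of 0.04 and an SD of 0.59 over all tested genes. Standard errors of the single genes lay between 0.11 and 0.20. With no adjustment, the limma p was under 0.05 for 3 genes (RPS9C, PGY2 and RPL10B), or 6.67% beside 30.7% of all tested genes.

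The intervals show how much change these libraries leave possible. Over the 45 genes the median 95% interval of the log2 fold change ran from -0.12 to 0.60, and 42 of the intervals held 0. The highest upper bound was 0.77, that of RPS18A. In 19 of the 45 genes (42.2%) all induced libraries lay above all brc1-2 libraries, beside 20.8% of all tested genes and 24.7% of the 3045 genes whose mean FPKM was at least that of the lowest of the 45. No gene of the 45 had its induced libraries all below brc1-2, beside 18.1% of all tested genes. The 45 genes moved together over the libraries, so these counts and the 45 like signs are not independent observations.

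Much of the difference was carried by brc1-2 library 3. It was the lowest of the 6 libraries for 44 of the 45 genes (97.8%), beside 36.0% of all tested genes and 42.5% of those at or above the lowest of the 45. In these 44 genes it lay 16.9% to 34.4% below the mean of brc1-2 libraries 1 and 2. The median deviation of the 45 genes from their own mean was 0.14, 0.20 and 0.03 on the log2 scale in induced libraries 1 to 3. It was 0.02 and 0.02 in brc1-2 libraries 1 and 2 and -0.42 in library 3. The median over all tested genes in that library was -0.08. Among the induced libraries, library 3 was the lowest for 42 of the 45 genes and library 2 was the highest of all 6 for 33.

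**Figure D1:**
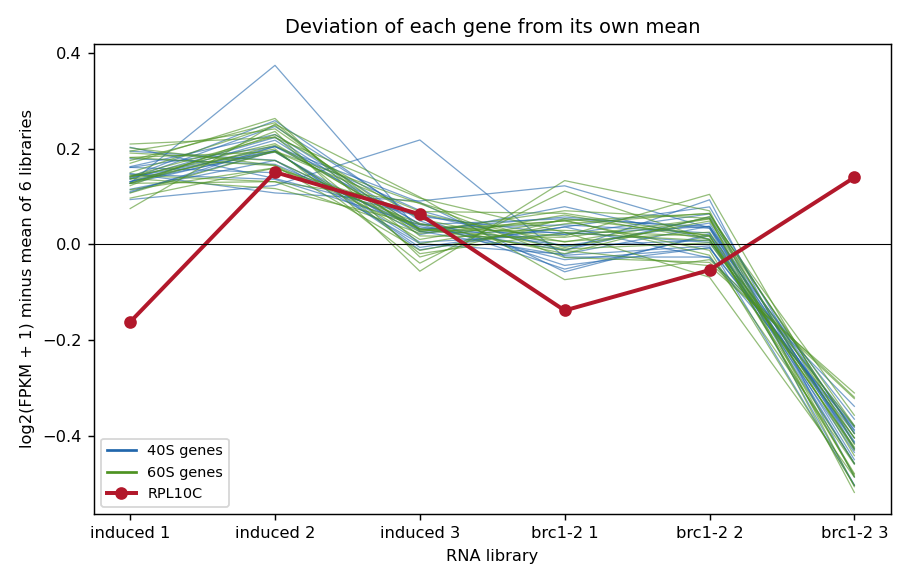
Deviation of log2(FPKM + 1) of each of the 45 genes from its own mean over 6 libraries, by library; thin lines are 40S genes (blue) and 60S genes (green), the thick red line is RPL10C, and lines only join the values of a gene. The 44 other genes drop together in brc1-2 library 3 (median of all 45: -0.42), where RPL10C is above its own mean.

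Without brc1-2 library 3, the median log2 fold change was 0.10 (1.08-fold), with a range of -0.00089 (RPL18C) to 0.20 (RPL10B), and 44 of 45 values were above 0. Again no gene passed the threshold in limma (adjusted p from 0.134 to 0.997), where 13.6% of all tested genes did. With no adjustment, 2 genes stood under 0.05, beside 29.3% of all tested genes. The median 95% interval then ran from -0.12 to 0.33, and the highest upper bound was 0.50. The induced libraries lay above both remaining brc1-2 libraries in 19 of 45 genes, beside 24.1% of all tested genes. The fit kept induced library 3, the lowest induced library for 42 of the 45 genes, and no fit left out both libraries numbered 3. Whether brc1-2 library 3 stands apart through its seedlings, its harvest or its preparation was not tested.

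**Figure D2:**
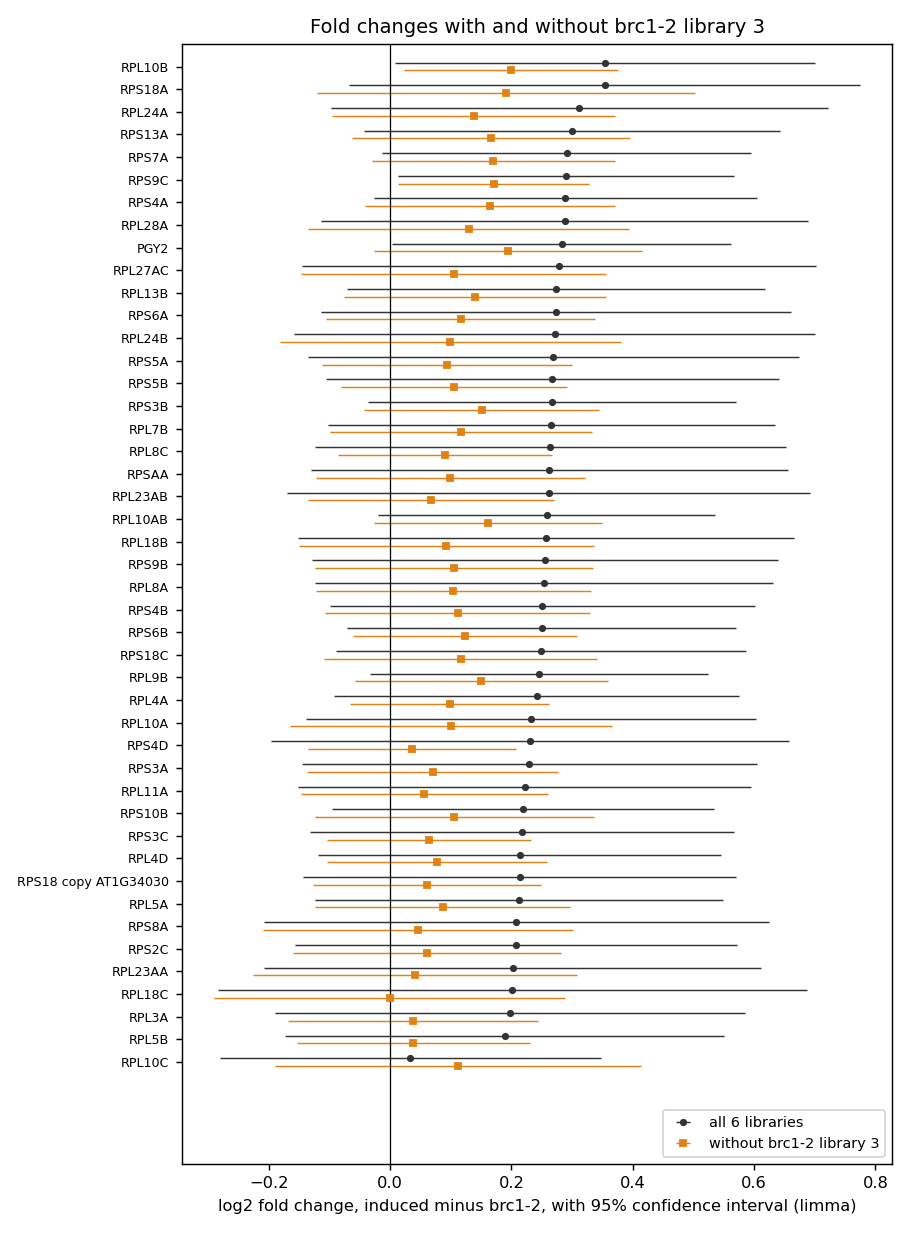
Log2 fold change (induced minus brc1-2, on the log2(FPKM + 1) scale) of the 45 genes with its 95% confidence interval from limma, with all 6 libraries (black circles) and without brc1-2 library 3 (orange squares). The median moves from 0.26 to 0.10, and 42 and 43 of the 45 intervals hold 0.

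Summed over the 45 genes, the FPKM was 33104, 34587 and 30737 in the induced libraries, against 30500.3, 30679.7 and 22764 in brc1-2. The induced libraries all lay above brc1-2, although induced library 3 exceeded brc1-2 library 2 by little. The ratio of the group means was 1.17, and 1.07 without brc1-2 library 3. A two-sided exact permutation test over the 6 libraries gave p = 0.1, the smallest that 3 against 3 allows. The same genes made up 2.7%, 2.82% and 2.58% of the summed FPKM of all listed genes in the induced libraries, against 2.53%, 2.57% and 1.92% in brc1-2. In whole seedlings, fewer cells of a type and less RNA per cell cannot be told apart.

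The genes of both subunits gave like values. The 40S genes summed to 14023, 14565 and 12998 FPKM in the induced line, against 12789.7, 12990.2 and 9454 in brc1-2. The 60S genes summed to 19082, 20022 and 17739 and to 17711, 17689 and 13309.6. The median log2 fold change was 0.26 for the 21 genes of the 40S and 0.26 for the 24 of the 60S. The ratio of the 60S to the 40S sum stayed within a narrow range, 1.36, 1.37 and 1.36 in the induced libraries, against 1.38, 1.36 and 1.41 in brc1-2 (two-sided exact permutation test, p = 0.3). The highest ratio was that of brc1-2 library 3.

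The 45 genes were among the most abundant messages of the seedlings, with single values from 47.6 to 1669 FPKM. By mean rank over the 6 libraries, 42 of them stood in the top 1000 genes, and the best stood at rank 80.8. A mean of at least 500 FPKM was reached by 31 genes, and 3 genes had a mean under 100.

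**Figure D3:**
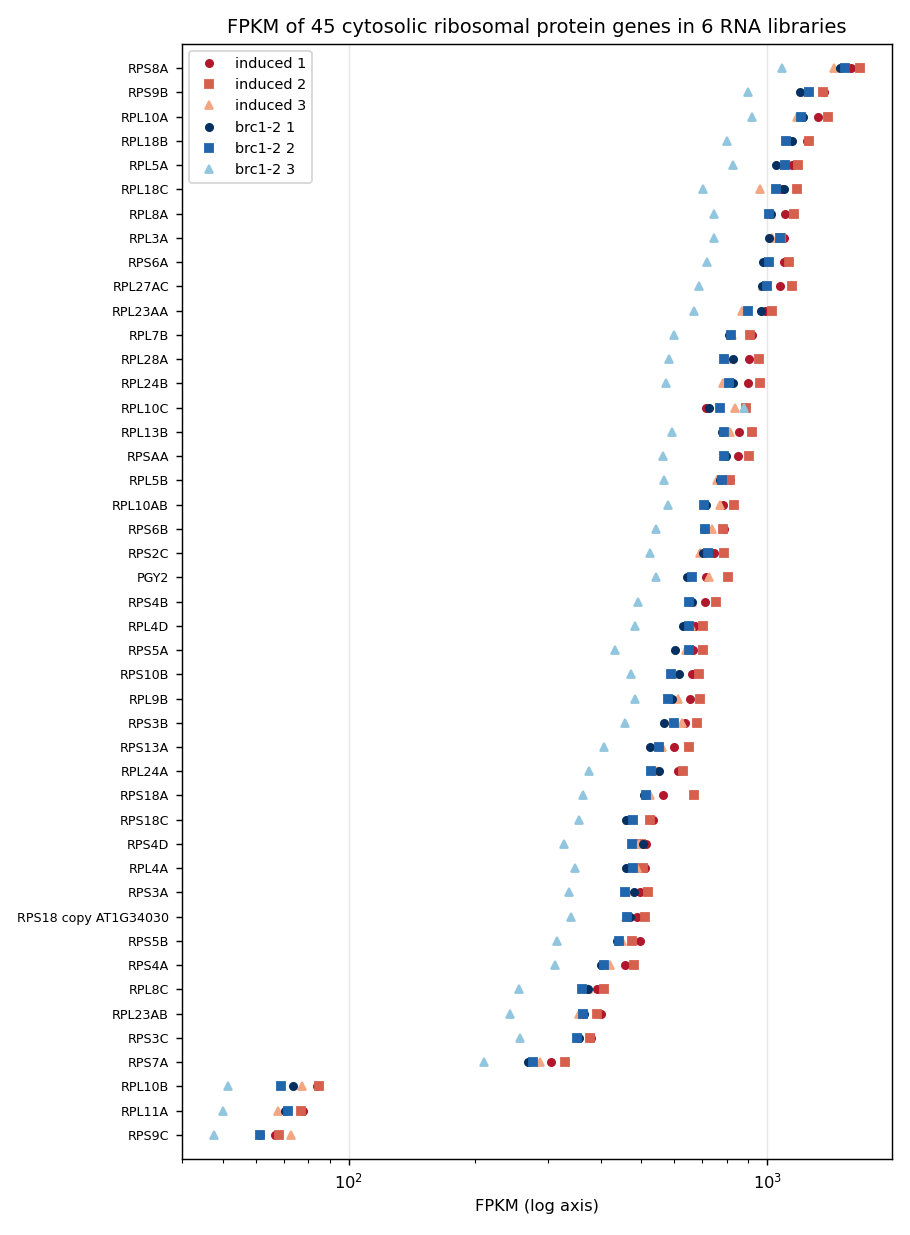
FPKM (log axis) of the 45 genes in each RNA library, ordered by mean; red symbols are induced libraries and blue symbols brc1-2 libraries. All genes but RPS9C, RPL11A and RPL10B lie above 200 FPKM in every library, and brc1-2 library 3 (pale blue triangles) is the lowest point of 44 genes.

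Among the small subunit proteins, RPS8A (AT5G20290, chromosome 5, 6851452 to 6853066) was the most abundant of the 45 genes. It had 1591, 1669 and 1445 FPKM in the induced libraries, against 1494, 1538 and 1083 in brc1-2, so the groups overlapped. Its log2 fold change of 0.21 (SE 0.17) had a limma adjusted p of 0.458. RPS9B (AT5G15200) encodes a protein of the decoding region known for its part in translational accuracy. It followed with 1369, 1358 and 1240.5 against 1199, 1258 and 898, a log2 fold change of 0.26 (SE 0.16, limma adjusted p = 0.329). Its sister copy RPS9C (AT5G39850, chromosome 5, 15950022 to 15951425) was the lowest of the 45, at 66.6, 68.0 and 72.7 FPKM in the induced line, against 61.2, 61.2 and 47.6 in brc1-2. The groups of RPS9C did not overlap, and its limma adjusted p of 0.148 was the smallest among the 45 genes (log2 fold change 0.29, SE 0.11).

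RPS18A (AT1G22780, chromosome 1, 8067864 to 8069342), known as POINTED FIRST LEAF after the leaf shape of its mutant, had 563, 668 and 525 FPKM in the induced libraries, against 507, 514 and 363 in brc1-2. The groups did not overlap, and induced library 2 was the highest. Its log2 fold change of 0.35 (SE 0.17, limma adjusted p = 0.229) was among the 3 largest of the 45. The sister copies had lower fold changes, 0.21 for the copy at AT1G34030 and 0.25 for RPS18C (AT4G09800). RPS13A (AT4G00100, POINTED FIRST LEAF 2) had 599, 650 and 562 against 524, 550.1 and 407. Its groups did not overlap either (log2 fold change 0.30, SE 0.14, limma adjusted p = 0.212).

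RPS6 is the ribosomal protein that S6 kinase phosphorylates downstream of TOR. RPS6A (AT4G31700) had 1097, 1131 and 1011 FPKM in the induced libraries, against 979, 1012 and 718 in brc1-2. The ranges touched, since brc1-2 library 2 lay just above induced library 3. RPS6B (AT5G10360) had 790.1, 784 and 738 against 705, 711 and 543, with no overlap. The log2 fold changes were 0.27 (SE 0.16) and 0.25 (SE 0.13), and neither passed the threshold in limma (adjusted p = 0.303 and 0.259).

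RPS5A (AT3G11940) is the copy whose promoter is widely used to drive expression in dividing cells. It had 666, 701 and 639 FPKM in the induced line, against 603, 649 and 434 in brc1-2, where library 2 exceeded the lowest induced library. RPS5B (AT2G37270) had 497, 475 and 449.6 against 438, 443 and 314, with no overlap. The fold changes of both copies were 0.27 on the log2 scale. The other small subunit genes were RPSAA, RPS2C, the 3 copies of RPS3 (a protein of the mRNA entry channel), RPS4A, RPS4B and RPS4D, RPS7A and RPS10B. Their log2 fold changes lay between 0.21 (RPS2C) and 0.29 (RPS7A), with limma adjusted p-values from 0.179 to 0.425. RPS7A, RPS4A, RPS4B and RPS3B were the members of that group whose libraries did not overlap.

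Among the large subunit proteins, RPL10A (AT1G14320, chromosome 1, 4888214 to 4889661), found as SAC52 in a screen for suppressors of dwarfism, was the most abundant. It had 1320.1, 1398 and 1179.6 FPKM in the induced libraries, against 1216, 1202 and 918 in brc1-2, with overlap. Its log2 fold change of 0.23 (SE 0.15) had a limma adjusted p of 0.355. RPL10B (AT1G26910, chromosome 1, 9321650 to 9322965) was expressed at far lower levels, 83.9, 84.7 and 77.5 against 73.7, 69.0 and 51.4, without overlap. Its log2 fold change of 0.35 (SE 0.14, limma adjusted p = 0.156) was the largest of the 45, and it was 0.20 without brc1-2 library 3.

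RPL10C (AT1G66580, chromosome 1, 24839165 to 24840612), also known as the senescence-associated gene SAG24, differed from all the others in its pattern over the libraries. It had 716, 889.8 and 837 FPKM in the induced line, against 728, 772 and 883 in brc1-2. Its brc1-2 library 3 was the highest of that group, 17.7% above the mean of brc1-2 libraries 1 and 2. At 0.03 (SE 0.13, limma adjusted p = 0.886) its log2 fold change was the smallest of the 45, and it was 0.11 without brc1-2 library 3. Its sign turned to -0.06 under quantile normalization. As a ratio to RPL10A, RPL10C had 0.542, 0.637 and 0.709 in the induced libraries, against 0.599, 0.643 and 0.962 in brc1-2. The groups overlapped (two-sided exact permutation test, p = 0.6), and the ratio of brc1-2 library 3 was the highest of the 6. The pattern was noticed after the values were seen.

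**Figure D4:**
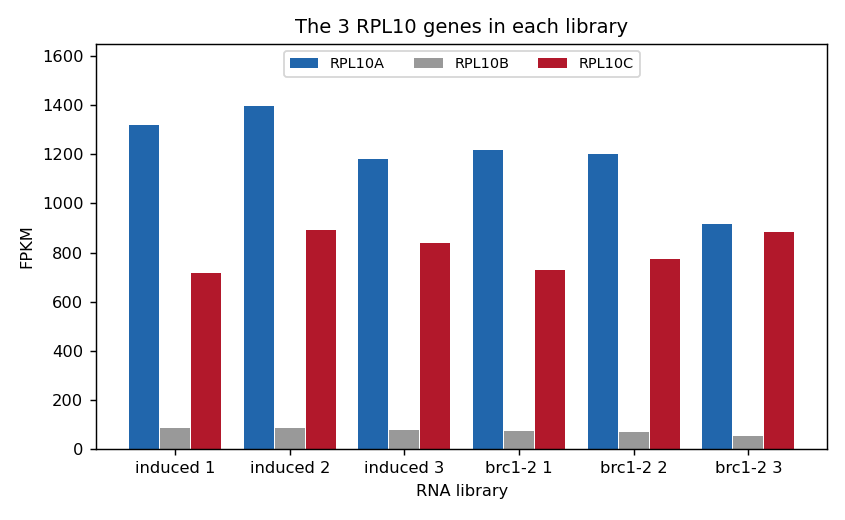
FPKM of RPL10A (blue), RPL10B (grey) and RPL10C (red) in each of the 6 RNA libraries; each bar is a single library and the axis starts at 0. RPL10A falls to 918 and RPL10C stands at 883 in brc1-2 library 3, a ratio of 0.962 where the other libraries lie between 0.542 and 0.709.

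RPL5 and RPL11 carry the 5S rRNA into the large subunit. RPL5A (AT3G25520), named OLIGOCELLULA 5 for the few, large leaf cells of its mutant, had 1149.7, 1187 and 1095 FPKM in the induced libraries, against 1048, 1106 and 829 in brc1-2. RPL5B (AT5G39740, OLIGOCELLULA 7) had 814, 816 and 757 against 771, 779 and 566. Both pairs of groups overlapped, and the log2 fold change of RPL5B, 0.19 (SE 0.15, limma adjusted p = 0.44), was among the 3 smallest. RPL11A (AT2G42740) was among the 3 least abundant, with 77.7, 76.8 and 67.8 against 70.5, 71.6 and 50.1 and a log2 fold change of 0.22.

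PGY2 and RPL10AB, with RPL5A, are the PIGGYBACK genes, known from leaf polarity mutants. PGY2 (AT1G33140), a copy of RPL9, had 714, 807 and 726 FPKM in the induced libraries, against 644, 663 and 543 in brc1-2, without overlap. Its log2 fold change of 0.28 (SE 0.11) had a limma adjusted p of 0.158, and brc1-2 library 3 was 16.9% below the other brc1-2 libraries, the smallest such drop of the 44 genes. The other RPL9 copy, RPL9B (AT1G33120), lies 10750 bp away on chromosome 1 and had 655, 692 and 613 against 594, 581 and 483. RPL10AB (AT2G27530, PIGGYBACK 1), which encodes a protein different from RPL10, had 783, 832 and 771 against 713, 708 and 581 and a log2 fold change of 0.26. The groups of all 3 genes did not overlap.

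RPL3A (AT1G43170) and RPL8A (AT2G18020) encode proteins next to the peptidyl transferase centre. RPL3A had 1097, 1081 and 1026 FPKM in the induced line, against 1009, 1072 and 746 in brc1-2, and its log2 fold change of 0.20 (SE 0.16, limma adjusted p = 0.45) was among the 3 smallest. RPL8A had 1104, 1159 and 1022 against 1022, 1013 and 745, where the lowest induced value and the highest brc1-2 value are equal after rounding. RPL24B (AT3G53020, SHORT VALVE1), known for reinitiation of translation after upstream reading frames, had 900.5, 961 and 786 against 831, 811 and 574, with overlap. Its sister copy RPL24A (AT2G36620) had 611, 631 and 545 against 552, 529 and 376, and at 0.31 (SE 0.17, limma adjusted p = 0.27) the third largest log2 fold change of the 45.

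RPL18C (AT5G27850) had the deepest drop in brc1-2 library 3, 34.4% below the other brc1-2 libraries. Its FPKM was 1088, 1177 and 961 in the induced libraries, against 1096, 1049 and 703 in brc1-2, and its log2 fold change was 0.20 with all libraries and -0.00089 without brc1-2 library 3. RPL13B (AT3G49010, BBC1) had 859, 922 and 816 against 781, 788 and 594, without overlap. RPL23AA (AT2G39460), whose protein lies at the exit of the peptide tunnel, had 988, 1028 and 871 against 967, 901 and 667, with overlap. The other large subunit genes, RPL4A, RPL4D, RPL7B, RPL8C, RPL18B, RPL23AB, RPL27AC and RPL28A, had log2 fold changes from 0.21 (RPL4D) to 0.29 (RPL28A) and limma adjusted p-values from 0.291 to 0.37. Of these, RPL4A, RPL4D, RPL7B and RPL8C had groups that did not overlap.

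The contribution of each copy to its protein family was compared next. In 13 of the 14 families with more than 1 member the order of the copies was the same in all 6 libraries; the exception was RPS18. RPS9B supplied 95.4%, 95.2% and 94.5% of the RPS9 family FPKM in the induced libraries, against 95.1%, 95.4% and 95% in brc1-2. RPL8A supplied 73.8%, 74.0% and 73.2% against 73.2%, 73.7% and 74.5% of the FPKM of its measured family. These shares count only the copies among the 45 genes.

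Of 32 such shares, 2 had groups that did not overlap, both in the RPS18 family. The share of RPS18A was 35.5%, 39.2% and 36.1% in the induced libraries, against 35.3%, 35.3% and 34.4% in brc1-2 (37.0 ± 1.96 against 35.0 ± 0.555, SD, n = 3 each). The copy at AT1G34030 had 30.8%, 29.9% and 31.7% against 32.7%, 31.8% and 32.1%. For each, the two-sided exact permutation test gave p = 0.1, the smallest that 3 against 3 allows, and with 32 shares compared no adjusted value can pass. RPL10C held 47.7% of the RPL10 family in brc1-2 library 3 and 33.8% to 40% in the other libraries.

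Binding of GFP-BRC1 was examined next, in a list of 4227 peaks with a median width of 398 bp. A peak midpoint lay within 1000 bp of 3 of the 45 genes (6.67%), beside 16.3% of the 20686 tested genes with a position. The genes were RPS9B, RPL13B and RPL23AA. Within 3000 bp there were 5 of the 45, with RPS4B and RPL27AC added, beside 27.7% of all tested genes with a position. No peak midpoint lay inside a locus of the 45, where 2.43% of all genes had one. The median distance from the locus to the nearest peak midpoint was 16195 bp, against 8566.5 bp over all tested genes with a position. Peak positions carry no score, and without strand a peak before a gene cannot be told from one behind it.

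RPS9B (chromosome 5, 4934883 to 4936408, TAIR10) had the only peak of the 3 with no other annotated locus within 1000 bp. The peak lies at chr5:4934515-4934810, with its midpoint 221 bp from the locus. The log2 fold change of RPS9B, 0.26, was the median value of the 45 genes. The peak near RPL23AA (chromosome 2, 16474149 to 16476108) lies at chr2:16473788-16474383 and overlaps that locus. Its midpoint lies 64 bp from RPL23AA and 267 bp from the neighbouring locus MTP11 (AT2G39450), a metal transporter gene. The peak also reaches into MTP11, which ends at 16473818. MTP11 had 61.2, 60 and 65.4 FPKM in the induced libraries, against 26.2, 26.1 and 25.1 in brc1-2, a log2 fold change of 1.24 (SE 0.06, limma adjusted p = 0.000356), while RPL23AA had 0.20 (SE 0.17, limma adjusted p = 0.463). The peak near RPL13B (chromosome 3, 18166769 to 18168692) lies at chr3:18166020-18166477, between that locus and AT3G49000. Its midpoint lies 521 bp from RPL13B and 262 bp from AT3G49000. The log2 fold changes were 0.27 (SE 0.14) for RPL13B and 0.31 (SE 0.10) for AT3G49000, and neither passed the threshold in limma (adjusted p = 0.251 and 0.102).

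Other cytosolic ribosomal protein genes, taken from a list written by hand that need not be complete, gave similar values. Of 164 listed, 159 were tested, and all 159 log2 fold changes were above 0, with a median of 0.27 (0.12 without brc1-2 library 3). Brc1-2 library 3 was the lowest library for 157 of them, beside 36.0% of all tested genes. These genes also moved together over the libraries, so their like signs are not independent observations. In limma 1 of the 159 passed the threshold, beside 16.2% of all tested genes (7.37% called higher). It was RPS8B (AT5G59240), a weakly expressed sister copy of RPS8A. RPS8B had 30.3, 30.1 and 32.0 FPKM in the induced libraries, against 21.5, 17.5 and 14.0 in brc1-2 (log2 fold change 0.79, SE 0.15, limma adjusted p = 0.019). Its call was lost without any 1 of the induced libraries or without brc1-2 library 2, with limma adjusted p-values from 0.0597 to 0.0698 and log2 fold changes from 0.76 to 0.80. Peaks lay near 9 of the 158 with a position (5.7%), beside 16.3% of all tested genes with a position. The 45 genes and the 159 were also summed together. Of that FPKM, the 45 made up 26.5%, 26.3% and 27% in the induced libraries, against 26.9%, 26.8% and 27.4% in brc1-2.

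Genes that build or drive the ribosome were set beside these values. Of 31 ribosome biogenesis genes, 3 rose and none fell in limma, a share near the 7.37% of all tested genes that were called higher. The median log2 fold change of the list was 0.23 (0.13 without brc1-2 library 3). Brc1-2 library 3 was the lowest library for 28 of the 31, beside 36.0% of all tested genes, and the median deviation of the list there was -0.37. NUC-L2 (AT3G18610), a nucleolin of the rRNA gene repeats, had 12.4, 13.7 and 14.4 FPKM against 6.98, 6.3 and 6.29 (log2 fold change 0.95, SE 0.09, limma adjusted p = 0.00209). NMD3 (AT2G03820), the export adaptor of the 60S subunit, had 112, 114 and 117 against 82.0, 83.0 and 79.4 (log2 fold change 0.48, SE 0.06, limma adjusted p = 0.00443), with 1 peak within 1000 bp. LSG1-2 (AT1G08410), a GTPase of late 60S maturation, had 26.2, 26.3 and 27.1 against 22.2, 21.7 and 18.4. Its limma adjusted p of 0.0449 rose to between 0.0575 and 0.134 without any 1 library other than brc1-2 library 3, and was 0.0812 with the replicate number as a block. Of 20 translation factors none passed the threshold in limma, beside 16.2% of all tested genes. An unadjusted limma p under 0.05 was reached by 5 of the 20, beside 30.7% of all tested genes. Their median log2 fold change was 0.18 (0.11 without brc1-2 library 3).

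The TOR pathway list held 6 genes, of which S6K2 (AT3G08720), a kinase of RPS6, rose in limma. S6K2 had 16.1, 15.1 and 18.2 FPKM in the induced line, against 10.9, 9.97 and 11.9 in brc1-2 (log2 fold change 0.55, SE 0.10, limma adjusted p = 0.0155). The limma adjusted p was 0.0585, 0.0513 and 0.0506 without induced library 1, induced library 3 and brc1-2 library 2. Its closely related neighbour S6K1 (AT3G08730) had 43.5, 40.4 and 39.5 against 39.7, 33.9 and 30.0 (limma adjusted p = 0.187), and the split of reads between them is uncertain. Peaks lay within 1000 bp of 3 of the 6 genes, TOR (1), S6K1 (1) and S6K2 (2), beside 16.3% of all tested genes with a position. The loci of S6K1 and S6K2 are neighbours, so a peak can count for both, and 6 genes are too few to read a share from. TOR itself (AT1G50030) had 12.8, 7.72 and 11.0 against 10.4, 10.9 and 11.1, a log2 fold change of -0.06.

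The ribosomal proteins of the plastid, a separate particle, did not share the drop of brc1-2 library 3. That library was the lowest for 4 of 34 plastid ribosomal protein genes, beside 36.0% of all tested genes. The median deviation of the plastid genes in that library was -0.05, beside -0.42 for the 45 cytosolic genes. The plastid list had a median log2 fold change of 0.15 (0.17 without brc1-2 library 3). No gene of it passed the threshold in limma, nor had an unadjusted p under 0.05, beside 16.2% and 30.7% of all tested genes.

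**Figure D5:**
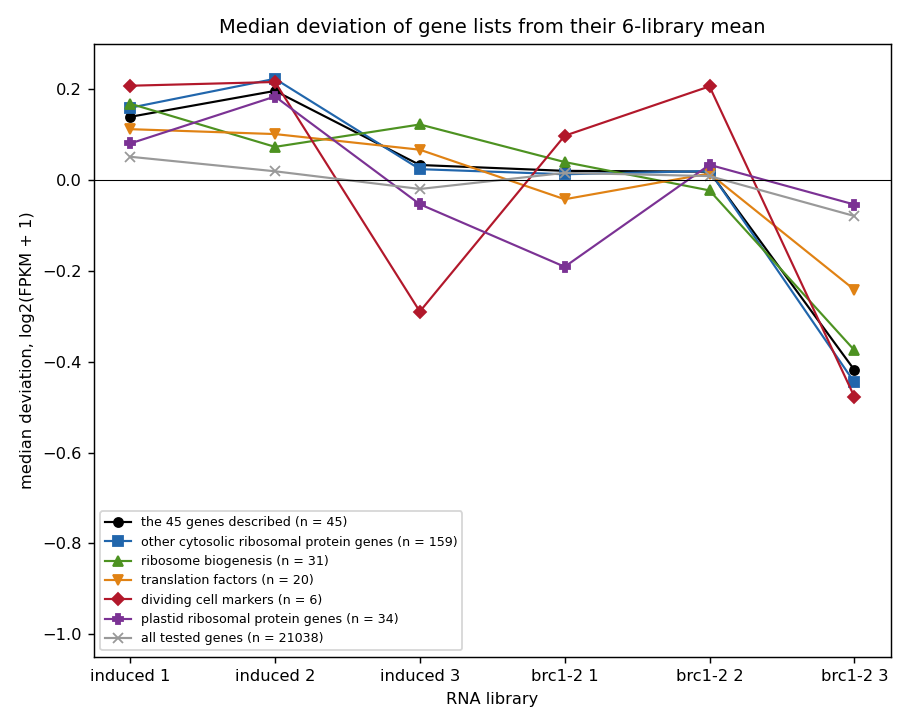
Median deviation of log2(FPKM + 1) from the mean over 6 libraries, by library, for the 45 genes (black), 5 other gene lists and all tested genes (grey); lines only join the values of a list. In brc1-2 library 3 the 45 genes stand at -0.42 and all tested genes at -0.08, while dividing cell markers are low both there and in induced library 3.

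Markers of dividing and meristem cells were low together with the ribosomal protein genes in brc1-2 library 3, and were also low in induced library 3. The 6 markers (CYCB1-1, CDKB1-1, CDKB2-1, KN, CYCA1-1 and STM) summed to 123, 126 and 84.5 FPKM in the induced libraries, against 109, 118 and 68.5 in brc1-2, and none was at 0. Brc1-2 library 3 was the lowest library for 5 of the 6, and no marker passed the threshold in limma or had an unadjusted p under 0.05. Their median log2 fold change was 0.11, and -0.10 without brc1-2 library 3. The summed FPKM of the 5 leaf markers was highest in brc1-2 library 3. It was 17154, 19832 and 19665 in the induced line, against 15655, 18538 and 22850.1 in brc1-2. Not every leaf marker followed the sum, since LHCB2.1 was highest in brc1-2 library 1. Root markers summed to 37.1, 29.6 and 29.1 against 59.6, 55.0 and 38.4. Much of that difference is from 1 gene, EXPA7, given below, and 2 of the 7 root markers had a log2 fold change above 0. In limma 1 of the 5 leaf markers fell, LHCB2.1 (355, 365 and 401 FPKM against 907, 664 and 739 in brc1-2, adjusted p = 0.00611). Of the 7 root markers 1 fell in limma, the root hair expansin EXPA7 (2.55, 1.84 and 3.11 FPKM against 24.6, 15.1 and 12.3, adjusted p = 0.00433). The part of cell composition in the levels of the 45 genes was not tested.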

How the data were processed

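Per the file headers, the deposited RNA tables have a Cufflinks layout and give FPKM, with its confidence bounds, for each assembled piece. Bowtie, TopHat, Cuffdiff, Bowtie2 and MACS2, and the build TAIR10, are named in the submitters' processing notes without roles or versions. The deposited peak list, positions without scores, is by its name what anti-GFP libraries 1 and 2 have in common, and neither the Input libraries nor the remaining anti-GFP library was analysed here. BED starts were shifted to count from 1, and peaks were joined to the annotated locus of each gene by their midpoint, within 1000 bp.

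Piece values were summed per gene, and fragments were derived from the confidence bounds; intervals on them cover counting error only. The test took genes that reached an FPKM of 1 in 3 or more of 6 libraries, and was run on log2(FPKM + 1), a scale that understates changes of low genes. The fit was limma 3.58.1 (trend) in R 4.3.3, without covariates, two-sided, with Benjamini-Hochberg adjustment over all tested genes at 0.05. No gene set test was run. Other steps used Python 3.11.15 (pandas 2.3.3, numpy 2.4.6, matplotlib 3.10.9, scipy 1.17.1). The fit was also run on simulated data with independent spread for each gene. Those data held no drop shared by many genes, so they do not cover the pattern of brc1-2 library 3.

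The 45 genes and all lists were chosen with earlier results of these data known. Values in every library are given for genes with a peak, for the 3 highest and 3 lowest levels, for the 3 largest and 3 smallest fold changes, for paralogs described, and for called genes of other lists; others named were chosen after their values were seen. Names come from RefSeq (TAIR10.1), which held all 45 genes. From the other ribosomal protein genes 1 identifier was dropped because its RefSeq symbol is that of a receptor kinase. Only the symbol was checked, so the dropped gene may still encode a ribosomal protein. Alternatives were other pseudocounts, filters, scalings, peak distances and leaving out each library.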

Additional observations from a re-analysis of the deposited data

How the results depend on the processing

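The count of the 45 genes past the threshold was 0 in each alternative fit run. Their median log2 fold change lay between 0.10 and 0.33 when libraries were left out in turn, and was 0.15 under quantile normalization and 0.25 to 0.27 in the other fits. With the replicate number as a block, 9 of the 45 genes (20%) had an unadjusted limma p under 0.05 in place of 3, beside 33.2% of all tested genes, and median-centred values also gave 9 (33.3% of all). With the block, 2989 of all genes were called in place of 3413. Under it 2 of the other cytosolic ribosomal protein genes were called in place of 1, AT1G29965 being added, and LSG1-2 lost its call (limma adjusted p = 0.0812). Libraries with the same number had deviations with correlations of 0.0824, 0.0597 and 0.193, all above 0 and highest for number 3. The main fit did not pair the libraries by number. No pairs with different numbers were set beside these correlations, so the values do not show whether the libraries are paired or unpaired. Library 3 was the lowest induced library for 42 of the 45 genes, and brc1-2 library 3 was the lowest of all libraries for 44. Markers of dividing cells were low in both. Whether libraries with the same number share a factor was not tested. Leaving out 1 library gave 0 to 1 calls among the other cytosolic ribosomal protein genes and 0 to 1 in the TOR pathway list. The number of the 45 genes with a peak midpoint was 5 within 3000 bp and 0 inside loci not extended.

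The log2 fold change of RPL10C was -0.056 with quantile normalization, and lay between -0.034 (without induced library 2) and 0.12 (without induced library 1) when libraries were left out in turn, with -0.027 without brc1-2 library 1. That of RPL18C lay between -0.00089 (without brc1-2 library 3) and 0.32 (without brc1-2 library 1). What causes these reversals was not tested. Among the single genes named, 725 comparisons kept direction and side of the threshold, 13 lost a call and 4 changed sign. The promoter motif counts were not run.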
